A study of Homo sapiens with 12 samples.

Results

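The genes described here encode the Sm proteins of the spliceosome and pICln, the chaperone that holds them during assembly. They are the rows of the count table named SNRPB, SNRPD1, SNRPD2, SNRPD3, SNRPE, SNRPF, SNRPG, SNRPN and CLNS1A, 9 of the 23500 genes listed. The rows were found by gene name, and each name matched 1 row. The 9 names were chosen with earlier results of these data known. Their RNA levels were measured in HEK293T cells, a human embryonic kidney line that carries the SV40 large T antigen, and in R1, a clone selected from HEK293T for growth without methionine. For 12 h both lines received either +Met medium or −Met+Hcy medium. The latter supplies homocysteine, from which cells can make methionine. Each of the 4 groups (HEK293T +Met, HEK293T −Met+Hcy, R1 +Met and R1 −Met+Hcy) had 3 libraries of total RNA. R1 is a single clone, so properties of methionine-independent cells in general and properties of this clone cannot be told apart. Both media contain dialyzed serum and vitamin B12. The labels do not say whether the 3 libraries of a group came from separate cultures, so p-values measure only the spread between these libraries.

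Sm proteins form a ring around the Sm site of the U1, U2, U4 and U5 small nuclear RNAs and so make the core of the spliceosomal particles. SNRPB, SNRPD1, SNRPD2, SNRPD3, SNRPE, SNRPF and SNRPG, called the 7 Sm core genes below, give 1 subunit of the ring each. SNRPN encodes a close relative of SmB that can take its place and is expressed from the paternal copy of an imprinted locus, mainly in brain. Before the ring closes, the arginines of the Arg-Gly repeats in the tails of SmB, SmD1 and SmD3 are symmetrically dimethylated by PRMT5, which works with WDR77 and pICln in a complex called the methylosome. The SMN complex then loads the ring onto the small nuclear RNA. PRMT5 takes its methyl groups from S-adenosylmethionine, which is made from methionine. Only RNA was measured here, and protein methylation was not.

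The substrate tails are visible in the coding sequences. The last 30 codons of the canonical transcripts (GENCODE 44, GRCh38) are shown for the 3 substrates of PRMT5 and, as a contrast, for SNRPD2, and capitals mark the arginine codon of each codon pair that reads Arg-Gly.
SNRPD1: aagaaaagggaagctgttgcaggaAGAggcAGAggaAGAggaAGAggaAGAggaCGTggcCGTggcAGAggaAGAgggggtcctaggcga
SNRPD3: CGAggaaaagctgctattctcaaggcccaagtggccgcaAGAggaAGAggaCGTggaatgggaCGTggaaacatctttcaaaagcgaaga
SNRPB: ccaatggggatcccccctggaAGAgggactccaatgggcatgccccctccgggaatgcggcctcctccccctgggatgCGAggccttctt
SNRPD2: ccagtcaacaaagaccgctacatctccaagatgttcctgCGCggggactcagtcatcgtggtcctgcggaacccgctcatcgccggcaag

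The SNRPD1 tail lies on the plus strand at chr18:21623924-21629135 and holds 9 of the gene's 10 Arg-Gly pairs in 1 unbroken run. The SNRPD3 tail, at chr22:24568146-24571974 on the plus strand, holds 5 of 7. SNRPB carries 8 pairs spread over 231 codons, and 2 of them fall in the stretch shown, at chr20:2461932-2462717 on the minus strand. Each of these 3 stretches spans 2 exons. SNRPD2, at chr19:45687556-45687645 on the minus strand and within 1 exon, has 1 pair. SNRPE and SNRPF have 1 pair each over their whole coding sequence, SNRPG has 2, SNRPN has 7 and CLNS1A has none.

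The genes themselves are scattered over the genome. In GENCODE 44 on GRCh38, SNRPB lies at chr20:2461634-2470853, SNRPN at chr15:24823637-24978723 and SNRPD1 at chr18:21612314-21633524. SNRPD2 lies at chr19:45687460-45692569, SNRPD3 at chr22:24555958-24582052 and SNRPE at chr1:203861599-203871152. SNRPF lies at chr12:95858952-95903828, SNRPG at chr2:70281362-70293740 and CLNS1A at chr11:77514936-77637794. Sm genes have many processed copies, and part of their sequence is not theirs alone. The share of a canonical transcript's 31-base words that also occur in transcripts of another gene was 5.42% for CLNS1A and 8.25% for SNRPD2, and it reached 33.2% for SNRPG and 75.2% for SNRPN. For SNRPD3 it was 21.0%, and 14.4% of its words were shared with ENSG00000286070, an overlapping entry that holds 1158 to 2279 counts per library, so reads of SNRPD3 could have been divided between these entries.

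The libraries held 12664158 to 18771349 counts. One library stood furthest apart. R1 −Met+Hcy replicate 3 differed from the others of its group by a chi-square of 257 to 297 per gene, while the other pairs of libraries within a group differed by 8.37 to 116. Its deviation from its group fell with the GC content of the transcript (Spearman rho −0.744 across 11043 genes, which are not independent). Leaving it out lowered the common dispersion of the model from 0.109 to 0.0349, so the fits are given with and without it, as values from 12 and from 11 libraries. R1 +Met replicate 2 also differed from the others of its group, by 93.0 and 116, while those differed from each other by 8.37. It was kept in both fits. Trends with GC content remained among the 11 libraries, with rho of −0.338 for R1 +Met replicate 2 and 0.537 for HEK293T +Met replicate 1. Trends with transcript length were present as well. Their rho ran from −0.458 for HEK293T −Met+Hcy replicate 3 to 0.54 for HEK293T +Met replicate 2. A second feature concerns scaling. In HEK293T +Met the 50 most abundant genes took 18.0 to 19.2% of the counts, against 13.1 to 15.1% in the other libraries apart from R1 −Met+Hcy replicate 3 (18.2%). TMM scaling, which corrects for such genes, therefore raises levels in HEK293T +Met relative to scaling by the column sum. Of the marker lists, VIM, expressed in HEK293-derived cells, was at 305 to 835 CPM (counts scaled to a library total of 1000000), 4 of 6 genes of that list exceeded 1 CPM in every library, and PAX2 and LHX1 did not. KRT5, KRT14 and KRT6A, which mark breast epithelial cells, had no count in any library, and EPCAM brought the sum of that list to 0.245 to 6.55 CPM. The sums of the blood, endothelial and liver lists were at most 3.77, 0.437 and 0.685 CPM, and the fibroblast list, almost all COL1A1, summed to 9.12 to 40.9 CPM. Their part in the results below was not tested.

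All 9 genes passed the filter of 10 summed counts, among 17162 genes tested, but SNRPN passed it narrowly. SNRPN had counts of 0, 0 and 4 in HEK293T +Met, 3, 0 and 3 in HEK293T −Met+Hcy, 0, 1 and 3 in R1 +Met, and 0 in all 3 libraries of R1 −Met+Hcy. A count of 0 allows up to 3 counts at this depth, so no difference between groups was detectable and no fold is given. SNRPN made up 0 to 0.0401% of the SNRPB and SNRPN counts of a library, which leaves SNRPB as the source of nearly all counts for this position of the ring. Per kilobase of canonical transcript, SNRPD2 and SNRPB were the most abundant members in HEK293T +Met, at a mean of 1371 and 1079 CPM per kb. They were followed by SNRPG (543), SNRPF (309) and SNRPE (190), and CLNS1A (52.1), SNRPD1 (47.9) and SNRPD3 (25.3), whose transcripts have long untranslated parts, came last. On the length of the coding sequence, SNRPD1 reached 651 and SNRPD3 232 CPM per kb, so the order of the genes depends on the length used.

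**Figure D1:**
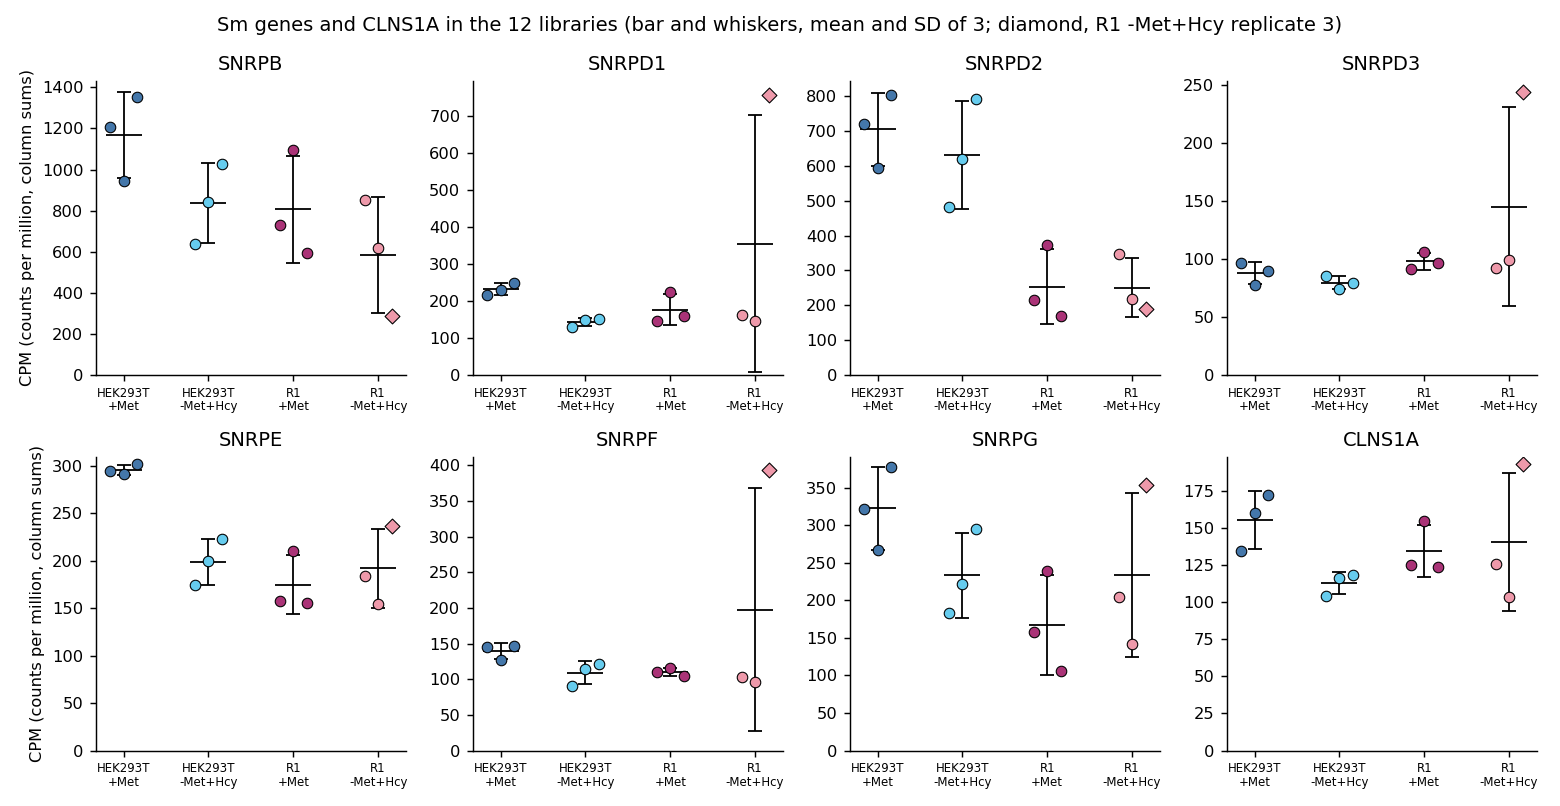
CPM from column sums (y axis, from 0) of the 7 Sm core genes and CLNS1A in each of the 12 libraries (points), by group on the x axis, with the mean and SD of 3 libraries (bar and whiskers). SNRPE in HEK293T +Met lies between 291 and 302 CPM, above every other library, and the diamond, R1 −Met+Hcy replicate 3, is the highest library for SNRPD1, SNRPD3, SNRPF and CLNS1A and the lowest for SNRPB.

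The first comparison asked how HEK293T cells, which depend on methionine, answer the exchange of methionine for homocysteine. All 7 Sm core genes and CLNS1A had negative log2 fold changes in −Met+Hcy, with a median of −0.75 over the core genes against −0.024 over all genes with a mean log2 CPM over 2. None of the 9 genes passed the test with 12 libraries (edgeR quasi-likelihood test, Benjamini-Hochberg adjusted p under 0.05), where 2.78% of all genes were called lower and 4.25% higher. At an unadjusted p under 0.05, SNRPE, CLNS1A and SNRPB were lower, 3 of 9, where 9.49% of all genes were, and DESeq2 called SNRPE, where 5.52% of all genes were called lower. With 12 libraries DESeq2 gave no adjusted p for SNRPD1 and SNRPN in any comparison, so its counts are out of the other 7 genes. The DESeq2 shares here and below are of all 17162 genes. These include genes without an adjusted p, which lowers the shares. With 11 libraries the same fold changes passed for SNRPD1, SNRPD3, SNRPE, SNRPF and CLNS1A, 5 of 9 against 12.5% of all genes called lower and 15.2% higher. Fitting only the 6 libraries compared, or DESeq2 without R1 −Met+Hcy replicate 3, called all members but SNRPD2 and SNRPN (7 genes, where 15.5% and 15.1% of all genes were called lower; SNRPN has no DESeq2 adjusted p there either). In bulk RNA a lower share of the counts and less RNA per cell cannot be told apart.

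SNRPE, one of the small subunits of the ring, was the member nearest to the threshold. Its level was 295, 291 and 302 CPM in HEK293T +Met and 174, 199 and 223 CPM in HEK293T −Met+Hcy. The groups did not overlap, and the coefficient of variation among the +Met libraries was 1.79%. The log2 fold change was −0.86 ± 0.24 (SE) with an edgeR adjusted p of 0.0527 in 12 libraries and 0.00315 in 11. The adjusted p was 0.0424 without R1 +Met replicate 2 and 0.0379 without R1 −Met+Hcy replicate 2.

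SNRPD1, whose protein has the longest Arg-Gly run among those shown, had the most negative fold change. It measured 217, 231 and 249 CPM in HEK293T +Met and 129.9, 149.5 and 150.0 CPM in −Met+Hcy. Every +Met library lay above every −Met+Hcy library. Its log2 fold change was −0.99 ± 0.55 (edgeR adjusted p = 0.312), and with 11 libraries −0.99 ± 0.18 (adjusted p = 0.0018). R1 −Met+Hcy replicate 3 takes no part in this comparison and changed the error through the estimate of the spread, which all 4 groups share.

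SNRPD3, the second of the SmD substrates, differed little. Its levels were 96.0, 77.7 and 89.6 CPM in HEK293T +Met and 85.1, 74.2 and 79.4 CPM in −Met+Hcy, and the groups overlapped. The log2 fold change was −0.44 ± 0.36 (edgeR adjusted p = 0.513), and it passed with 11 libraries (−0.44 ± 0.14, adjusted p = 0.031). Scaled by column sums it was −0.14.

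SNRPB, the third substrate and the member with the most counts, ranged more widely. It had 1209, 942 and 1353 CPM in HEK293T +Met and 637, 843 and 1027 CPM in −Met+Hcy. The highest −Met+Hcy library exceeded the lowest +Met library. With TMM scaling it had a log2 fold change of −0.77 ± 0.35 (edgeR adjusted p = 0.217, and 0.0527 with 11 libraries).

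SNRPD2, the partner of SmD1 in the ring and not a substrate, gave 719.7, 595 and 803 CPM in HEK293T +Met. In HEK293T −Met+Hcy it gave 483, 620.3 and 794 CPM. The groups overlapped over most of their range, and the log2 fold change of −0.45 ± 0.33 did not pass (edgeR adjusted p = 0.456, and 0.305 with 11 libraries).

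SNRPF and SNRPG encode the remaining small subunits. SNRPF stood at 145, 127 and 147 CPM in HEK293T +Met and 91.2, 114 and 122 CPM in −Met+Hcy, without overlap. SNRPG stood at 322, 268 and 377 CPM and then 183, 222 and 294 CPM, with overlap. Log2 fold changes were −0.65 ± 0.48 for SNRPF and −0.75 ± 0.40 for SNRPG (edgeR adjusted p = 0.464 and 0.295), and with 11 libraries SNRPF passed (adjusted p = 0.0087) and SNRPG did not (0.0784).

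CLNS1A encodes pICln, which binds free Sm proteins and brings them to PRMT5. Its levels were 134, 159.9 and 172 CPM in HEK293T +Met and 104, 116 and 118 CPM in −Met+Hcy. The groups did not overlap. The log2 fold change was −0.75 ± 0.27 (edgeR adjusted p = 0.119), and with 11 libraries −0.75 ± 0.16 (adjusted p = 0.0042).

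Counted by overlap alone, 4 of the 9 genes (SNRPD1, SNRPE, SNRPF and CLNS1A) were lower in every −Met+Hcy library on the column-sum scale, where 9.8% of all genes were. On the TMM scale 7 were, where 20.6% of all genes were, and SNRPD2 and SNRPN were the exceptions. The choice of scale moved all values together. With column sums the median of all genes with a mean log2 CPM over 2 was 0.27, the split of called genes went from 60.5% higher to 89.4% higher, and the median of the Sm core genes was −0.47, with all 7 still negative and none called (1.24% of all genes were called lower and 10.4% higher). Offsets that remove each library's trend with transcript GC content and length left SNRPD1 at −1.12, CLNS1A at −0.76, SNRPB at −0.67, SNRPE at −0.61 and SNRPD3 at −0.56, while SNRPD2, SNRPG and SNRPF came to −0.18, −0.14 and −0.12. CLNS1A, SNRPB and SNRPE were called under these offsets with 12 libraries (3 of 9, against 9.3% of all genes called lower), and with 11 libraries SNRPD1 and SNRPD3 were added (5 of 9, against 17.8%).

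**Figure D2:**
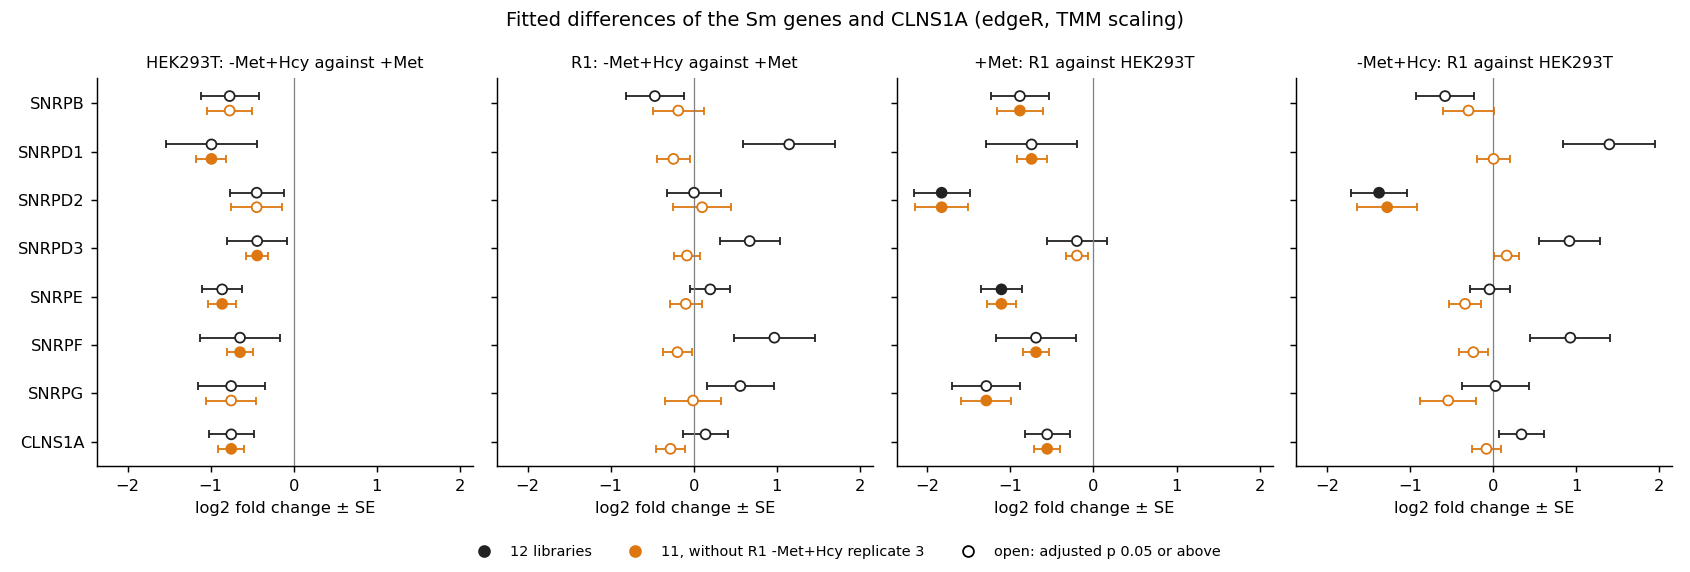
Log2 fold changes with their SE (x axis) of the 7 Sm core genes and CLNS1A (y axis) in 4 comparisons (panels), fitted to 12 libraries (black) or to 11 without R1 −Met+Hcy replicate 3 (orange); filled points have an adjusted p under 0.05. All points of the HEK293T panel lie below 0, SNRPD2 has the most negative value in both panels of R1 against HEK293T, and the black and orange points separate only where R1 −Met+Hcy enters.

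The second comparison set the R1 clone against HEK293T, both in +Met. SNRPD2 and SNRPE were lower in R1 (2 of 9 genes, where 4.48% of all genes were called lower and 5.69% higher). Log2 fold changes of the 7 core genes were all negative, with a median of −0.89 against −0.031 over all genes with a mean log2 CPM over 2. The same HEK293T +Met libraries are the reference of this comparison and of the first. High levels in these libraries lower the values of both, so the shared direction is not independent evidence. With 11 libraries 7 genes passed, all but SNRPD3 and SNRPN, where 15.7% of all genes were called lower and 17.1% higher. The same 7 were called when only the 6 libraries compared were fitted and by DESeq2 without R1 −Met+Hcy replicate 3 (13.4% and 18% of all genes called lower), and 5 were called under offsets with 11 libraries (18.8%). At an unadjusted p under 0.05 with 12 libraries, SNRPB, SNRPD2, SNRPE and SNRPG were lower, where 12.5% of all genes were.

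SNRPD2 fell the most. It measured 719.7, 595 and 803 CPM in HEK293T +Met and 215, 374 and 169 CPM in R1 +Met. The highest R1 library was below the lowest HEK293T library. The log2 fold change was −1.83 ± 0.34 (edgeR adjusted p = 0.0059) and the fold 0.281. The call held with column sums (−1.48, adjusted p = 0.0108), with GC and length offsets (−1.23, adjusted p = 2.15e-04), with DESeq2, and with each library left out in turn (adjusted p from 0.0011 to 0.0399).

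SNRPE had 158, 211 and 156 CPM in R1 +Met against 291 to 302 CPM in HEK293T +Met. The log2 fold change was −1.11 ± 0.24 (edgeR adjusted p = 0.0144, and 5.54e-04 with 11 libraries). This call was lost when 1 library was left out in 4 cases. The adjusted p was then 0.0522 without HEK293T +Met replicate 1, 0.0579 without HEK293T +Met replicate 3, 0.0816 without R1 +Met replicate 1 and 0.0743 without R1 +Met replicate 3. Under GC and length offsets the log2 fold change was −0.52 and still passed, and SNRPB was called there as well (3 of 9, where 9.81% of all genes were called lower). Of the 7 genes with an adjusted p, DESeq2 called SNRPD2, SNRPE and SNRPG (7.95% of all genes called lower).

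The other members did not pass with 12 libraries. SNRPG had 158, 239 and 106 CPM in R1 +Met, below each HEK293T +Met library, with a log2 fold change of −1.29 ± 0.41 (edgeR adjusted p = 0.0647). It passed without R1 +Met replicate 2 (adjusted p = 0.0335), without R1 −Met+Hcy replicate 2 (0.0422) and with 11 libraries (0.0065), and under GC and length offsets it was −0.26 with 12 libraries (0.205) and −0.25 with 11 (0.0724). SNRPB, at 732, 1093 and 591 CPM, overlapped HEK293T +Met and had a log2 fold change of −0.89 ± 0.35 (adjusted p = 0.131, and 0.0259 with 11 libraries). SNRPD1, at 146, 225 and 158 CPM, also overlapped (−0.75 ± 0.55, adjusted p = 0.423, and 0.0078 with 11 libraries).

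SNRPF varied least among the R1 libraries, at 111, 116 and 105 CPM, and was below every HEK293T +Met library. Its log2 fold change was −0.69 ± 0.48 (edgeR adjusted p = 0.398, and 0.0051 with 11 libraries), and it was 0.31 under GC and length offsets. CLNS1A, at 125, 155 and 123 CPM, gave −0.56 ± 0.27 (adjusted p = 0.213, and 0.0174 with 11 libraries). SNRPD3, at 91.2, 106 and 96.3 CPM, gave −0.20 ± 0.36 (adjusted p = 0.779, and 0.28 with 11 libraries). The direction of SNRPD3 depended on the scaling, since column sums gave 0.16. The same scaling moved the median of all genes to 0.32 and the split of called genes from 55.9% to 86.3% higher, and SNRPD2 and SNRPE remained called (2.08% of all genes were called lower and 13.1% higher). Without overlap, 4 of the 9 genes were lower in R1 on the column-sum scale (SNRPD2, SNRPE, SNRPF and SNRPG, where 9.15% of all genes were) and 7 on the TMM scale (where 20.7% were).

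In −Met+Hcy, R1 and HEK293T were compared after both had been exposed to the same medium, with the HEK293T −Met+Hcy libraries as the reference. SNRPD2 was again lower in R1, the 1 gene of 9 called, where 6.76% of all genes were called lower and 7.2% higher. Its levels were 346, 218 and 189 CPM in R1 −Met+Hcy against 483, 620.3 and 794 CPM in HEK293T −Met+Hcy, without overlap, where 17.8% of all genes were lower in this way. The log2 fold change was −1.38 ± 0.33 (edgeR adjusted p = 0.017), and −1.28 ± 0.36 with 11 libraries (adjusted p = 0.0181). The adjusted p was 0.0625 when only the 6 libraries compared were fitted, 0.0537 without HEK293T −Met+Hcy replicate 2, 0.0803 without HEK293T −Met+Hcy replicate 3 and 0.0567 without R1 −Met+Hcy replicate 2. Under GC and length offsets the log2 fold change was smaller, −0.85 with 12 libraries and −0.91 with 11. It was called in both (edgeR adjusted p = 0.0015 and 6.03e-04), where 13.1% and 19.3% of all genes were called lower. For SNRPD2, the 4 groups thus fell in an order in which HEK293T +Met and HEK293T −Met+Hcy overlapped, R1 +Met and R1 −Met+Hcy overlapped, and no R1 library reached a HEK293T library.

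Positive values in the same comparison rested largely on 1 library. SNRPD1 gave 1.40 ± 0.55, SNRPD3 0.92 ± 0.36 and SNRPF 0.93 ± 0.48 with 12 libraries (edgeR adjusted p = 0.114, 0.114 and 0.223). With 11 they gave 0.0021, 0.16 and −0.24. SNRPB, SNRPE, SNRPG and CLNS1A gave −0.58, −0.047, 0.025 and 0.34 with 12 libraries and −0.30, −0.34, −0.54 and −0.084 with 11. The core median was 0.025 with 12 and −0.30 with 11, against −0.0044 and −0.042 over all genes with a mean log2 CPM over 2. SNRPD3 was the only gene of the 9 that was higher in every R1 −Met+Hcy library than in every HEK293T −Met+Hcy library, at 92.1, 98.7 and 244 CPM against 74.2 to 85.1 CPM, where 13.9% of all genes were higher in this way. It was called under GC and length offsets with 12 libraries (adjusted p = 0.0361, where 16.8% of all genes were called higher and 13.1% lower) and not with 11 (0.0803). SNRPD3 also passed without R1 −Met+Hcy replicate 1 (adjusted p = 0.0417), and SNRPD1 without replicate 1 or 2 of that group (0.0452 and 0.0401).

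Within R1, the change of medium gave no call. None of the 9 genes passed, and none had an unadjusted p under 0.05, where 5.68% of all genes were higher and 2.11% lower at that level. DESeq2 gave a p for all members but SNRPD1. Of these, 1 was under 0.05, SNRPF, which was higher. In DESeq2, 6.37% of all genes were higher and 2.63% lower at that level. At an edgeR adjusted p under 0.05, 0.00583% of all genes were called higher and 0% lower. With 12 libraries the log2 fold changes ran from −0.47 for SNRPB to 1.15 for SNRPD1, with a core median of 0.56. With 11 they ran from −0.28 for CLNS1A to 0.10 for SNRPD2, with a core median of −0.094, and the adjusted p was 0.821 or more.

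The R1 libraries show this directly. SNRPD1 was at 146, 225 and 158 CPM in R1 +Met and at 162, 146 and 757 CPM in R1 −Met+Hcy. SNRPE was at 158, 211 and 156 CPM and then 184, 155 and 237 CPM. SNRPF was at 111, 116 and 105 CPM and then 103, 96.7 and 394 CPM. Replicates 1 and 2 of R1 −Met+Hcy lay within or close to the range of R1 +Met for each of these genes, and replicate 3 lay above it.

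Whether the lines answered the medium differently was tested as an interaction, the R1 response minus the HEK293T response. No member was called by edgeR, where 0.0583% of all genes were called lower and 0% higher, and none of the 7 with a DESeq2 adjusted p was called by DESeq2. The values of the 7 core genes were all positive, with a median of 1.12 in 12 libraries and 0.59 in 11, against 0.010 and 0.017 over all genes with a mean log2 CPM over 2. The HEK293T +Met libraries, the reference of the first and second comparisons, enter this difference too, so it is not independent of them. SNRPD1 gave 2.14 ± 0.78 (edgeR adjusted p = 0.412) and, with 11 libraries, 0.75 ± 0.27 (adjusted p = 0.177). SNRPE gave 1.06 ± 0.34 (adjusted p = 0.355) and 0.77 ± 0.26 (adjusted p = 0.148). At an unadjusted p under 0.05, 6 of 9 genes were higher with 12 libraries, where 4.62% of all genes were, and 2 with 11, where 7.29% were. Under the combination of GC and length offsets with 11 libraries, chosen after seeing the data, SNRPD1, SNRPE and CLNS1A passed (adjusted p = 0.0226, 0.0311 and 0.0416), where 3.71% of all genes were called higher. With 12 libraries the responses of the lines were not shown to differ for any member.

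The RNA of the ring was also described by its sum and its composition. The summed level of the 7 Sm core genes was 2952 ± 398 CPM (SD, n = 3) in HEK293T +Met and 2233 ± 453 CPM in HEK293T −Met+Hcy. For R1 +Met it was 1785 ± 514 CPM, and for R1 −Met+Hcy 1959 ± 493 CPM, or 1708 ± 329.5 CPM (n = 2) without replicate 3. On the TMM scale these means were 3496, 2163, 1659 and 1903 CPM.

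SNRPD2 made up 23.5 to 24.2% of the core sum in HEK293T +Met and 27.1 to 29.5% in HEK293T −Met+Hcy. In R1 its share was 12.2 to 15.8% in +Met, and 17.8, 14.8 and 7.67% in −Met+Hcy. These shares do not depend on scaling, and the ranges of HEK293T and R1 were apart in both media. The share of SNRPB was 37.2 to 40.7% and 35.7 to 38.2% in the HEK293T groups, 42.8 to 46.2% in R1 +Met, and 43.8, 42.0 and 11.6% in R1 −Met+Hcy. The ratio of SNRPD1 to SNRPD2 counts was 0.189 to 0.388 over the 6 HEK293T libraries and 0.469 to 0.938 over the 5 R1 libraries other than R1 −Met+Hcy replicate 3. Shares and ratios were described without a test.

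**Figure D3:**
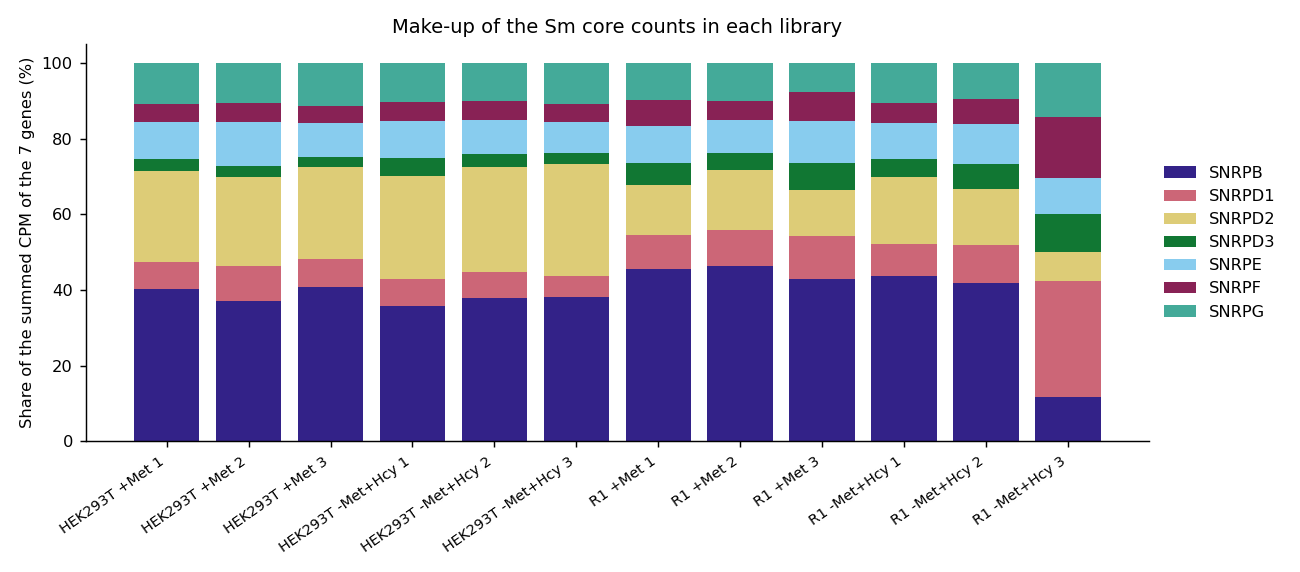
Share of each Sm core gene in the summed CPM of the 7 genes (y axis, %) in each of the 12 libraries (stacked bars). The SNRPD2 band is wider in the 6 HEK293T libraries (23.5 to 29.5%) than in the 6 R1 libraries (7.67 to 17.8%), and the last bar, R1 −Met+Hcy replicate 3, has an SNRPB share of 11.6% and an SNRPD1 share of 30.8%.

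In R1 −Met+Hcy replicate 3 the members deviated from their group in both directions. SNRPD1 stood at 4.91 times the mean of the other two libraries of its group, SNRPF at 3.95 times, SNRPD3 at 2.56 times and SNRPG at 2.04 times. CLNS1A stood at 1.68 and SNRPE at 1.40 times. SNRPD2 and SNRPB were at 0.67 and 0.39 times. The transcripts of the last pair have a GC content of 53.8 and 58.2%, and those of the 6 genes that were higher have 39.2 to 44.8%. Among these 6 genes, the order of the ratios was not the order of GC content. A part of base composition in these ratios was not tested. SNRPD3 had 4580 counts in this library against 1264 and 1498 in the other two, while the overlapping entry ENSG00000286070 had 1525 counts against 1515 and 1649.

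**Figure D4:**
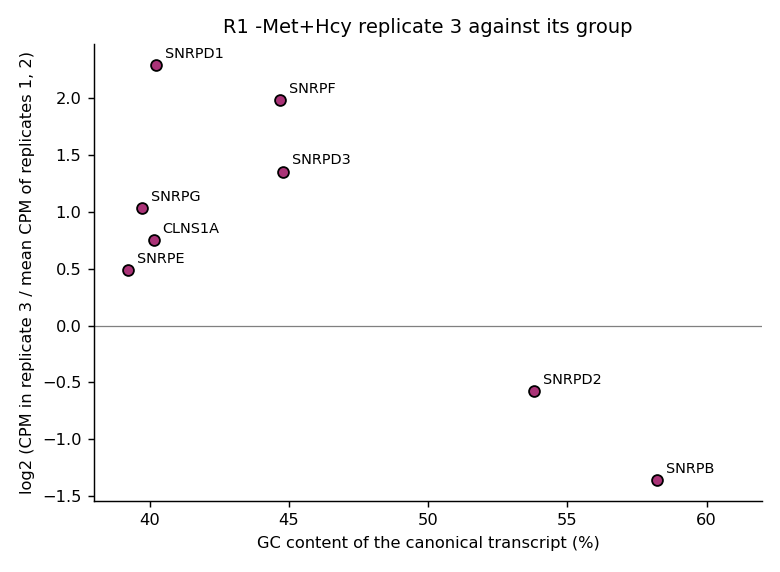
Level in R1 −Met+Hcy replicate 3 against the mean of replicates 1 and 2 (y axis, log2 ratio of CPM) by the GC content of the canonical transcript (x axis, %), for the 7 Sm core genes and CLNS1A (points). SNRPB and SNRPD2, with the highest GC content, lie below 0, and SNRPD1 lies highest at 2.29.

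The partners of the Sm proteins were followed in 7 lists of 75 genes in all. In HEK293T −Met+Hcy against +Met, 4 of the 75 were called higher and 2 lower with 12 libraries (5.33% and 2.67%, against 4.25% and 2.78% of all genes), and 10 higher and 22 lower with 11 (13.3% and 29.3%, against 15.2% and 12.5%). In R1 against HEK293T in +Met, none was called higher and 10 lower with 12 libraries (13.3%, against 4.48% of all genes), and 34 lower with 11 (45.3%, against 15.7%). The genes called with 12 libraries in these 2 comparisons were all called with 11 as well (6 of 6 and 10 of 10), with adjusted p from 2e-04 to 0.0049 in the first and from 1.87e-05 to 0.0067 in the second. With column sums the first comparison had 9 called higher and 1 lower (12.0% and 1.33%, against 10.4% and 1.24% of all genes), and the second had 4 lower (5.33%, against 2.08%). In R1 against HEK293T in −Met+Hcy, none was called higher and 10 lower with 12 libraries (13.3%, against 6.76% of all genes), and 1 higher and 20 lower with 11 (1.33% and 26.7%, against 15.7% and 14.6%). R1 −Met+Hcy against +Met and the interaction gave no call with edgeR under TMM scaling in either set of libraries, and none with DESeq2 in 12. At an unadjusted p under 0.05 edgeR had 6 of the 75 genes in the former with 12 libraries, where 5.68% of all genes were higher and 2.11% lower at that level, and 9 in the interaction, where 4.62% were higher and 5.05% lower. Under GC and length offsets with 11 libraries, the interaction was called higher for LSM6, SF3A2 and SNRPB2 and lower for DDX20, TOE1 and PHAX (3 and 3 of 75, or 4.0% each, against 3.71% and 4.8% of all genes).

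The medians of all genes with a mean log2 CPM over 2 stand beside the list medians below. They were −0.024 in HEK293T −Met+Hcy against +Met and −0.031 in R1 against HEK293T in +Met. Both comparisons have the HEK293T +Met libraries as reference. The methylosome list had no edgeR call among its 6 genes in HEK293T with 12 libraries, and its median was −0.29. At an unadjusted p under 0.05 edgeR had 3 of them, where 12.9% of all genes were higher and 9.49% lower. DESeq2 called 1 higher and 1 lower, where 7.52% and 5.52% of all genes were. PRMT5, the methyltransferase, had 349.7, 355 and 312 CPM in HEK293T +Met and 271, 305 and 292 CPM in −Met+Hcy, with a log2 fold change of −0.52 ± 0.17 (edgeR adjusted p = 0.0897, and 0.0082 with 11 libraries). WDR77, its partner, gave −0.41 ± 0.24 (adjusted p = 0.343, and 0.0168 with 11 libraries). Between the lines in +Met, RIOK1, an adaptor that competes with pICln for PRMT5, was lower in R1. It measured 111, 129 and 113 CPM in HEK293T +Met and 53.4, 61.8 and 52.4 CPM in R1 +Met, with a log2 fold change of −1.42 ± 0.26 (adjusted p = 0.0061), and −1.07 with column sums. PRMT5 and WDR77 gave −0.42 and −0.62 there (adjusted p = 0.134 and 0.125). Both were called lower with 11 libraries, where 15.7% of all genes were. DESeq2 with 12 libraries called PRMT5, where 7.95% of all genes were called lower. Neither was called with column sums.

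In the SMN complex, DDX20 (Gemin3), a helicase, rose in HEK293T cells. Its levels were 99.5, 123 and 101 CPM with methionine and 215, 247 and 238 CPM with homocysteine, and the log2 fold change was 0.83 ± 0.20 (edgeR adjusted p = 0.0263). GEMIN6 and STRAP were lower in R1 than in HEK293T in +Met, by −1.16 ± 0.32 and −0.84 ± 0.25 (adjusted p = 0.0384 and 0.0492), and neither was called with column sums. SMN1 and SMN2 are near-identical copies whose reads cannot be assigned with certainty, and 5 entries carry these symbols. Their summed level was 143 ± 11 CPM in HEK293T +Met, 177 ± 16.5 in HEK293T −Met+Hcy, 148 ± 27.2 in R1 +Met and 143 ± 17.9 in the first 2 libraries of R1 −Met+Hcy. It was 414 CPM in the third. The list of the SMN complex used a single entry for SMN1 and for SMN2. These had means of 1.78 and 5.36 CPM in HEK293T +Met, so the list median rests in part on entries with few counts.

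The LSm genes encode relatives of the Sm proteins that form rings of their own. All 10 had negative values in R1 against HEK293T in +Met, with a median of −0.81, and LSM2, LSM7 and LSM6 fell by 1.71, 1.55 and 1.12 on the log2 scale (edgeR adjusted p = 0.0119, 0.02 and 0.0254). With column sums 8 of 10 were negative and LSM2 alone passed, where 2.08% of all genes were called lower. LSM6 also fell in HEK293T −Met+Hcy, from 41.5, 36.0 and 44.3 CPM to 19.6, 21.2 and 25.4 CPM (log2 fold change −1.17 ± 0.28, adjusted p = 0.027).

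Of the 15 proteins of the U1 and U2 particles, 14 had negative values in HEK293T −Met+Hcy, with a median of −0.44, and SF3A2 was called (−1.06 ± 0.29, edgeR adjusted p = 0.048, not called with column sums). SNRPB2 and SNRNP70, which bind U2 and U1 RNA, gave −1.03 ± 0.35 and −0.97 ± 0.28 (adjusted p = 0.0995 and 0.0598), and SNRPA gave −0.49 ± 0.17 (adjusted p = 0.115). These 3 genes passed with 11 libraries (edgeR adjusted p = 0.0122, 0.0026 and 0.0129), where 12.5% of all genes were called lower. SNRPC, SF3B5 and SF3A2 were lower in R1 +Met than in HEK293T +Met, by −1.27, −1.32 and −1.03 (adjusted p = 0.0059, 0.0165 and 0.0423), and SNRPC alone was called with column sums. SNRPB2, SNRPA and SNRNP70 gave −1.02, −0.56 and −0.51 there (adjusted p = 0.0832, 0.0629 and 0.275).

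Of the 17 proteins of the U4/U6 and U5 particles none was called in HEK293T cells by edgeR or DESeq2 with 12 libraries (median −0.22). At an unadjusted p under 0.05 edgeR had 3, where 12.9% of all genes were higher and 9.49% lower. With 11 libraries edgeR called 1 higher and 4 lower, where 15.2% and 12.5% of all genes were. Column sums gave 1 higher, where 10.4% of all genes were. SNU13 was lower in R1 in +Met (−0.95 ± 0.22, edgeR adjusted p = 0.0166). Of the 8 proteins of the minor spliceosome, SNRNP35 rose in HEK293T −Met+Hcy (0.87 ± 0.21, edgeR adjusted p = 0.0264). Between the lines in +Met edgeR called none of the 8 with 12 libraries. It had 1 at an unadjusted p under 0.05, where 13.6% of all genes were higher and 12.5% lower. DESeq2 called 1 lower, where 7.95% of all genes were. With 11 libraries edgeR called 3 lower, where 15.7% of all genes were.

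The list of export, capping and import factors held 2 genes that rose in HEK293T −Met+Hcy. PHAX, the adaptor that takes new small nuclear RNA out of the nucleus, had 36.2, 46.2 and 33.5 CPM in HEK293T +Met and 124, 114 and 95.4 CPM in −Met+Hcy. Its log2 fold change was 1.23 ± 0.26 (edgeR adjusted p = 0.0152), and 1.52 with column sums. TOE1, a nuclease that trims the ends of small nuclear RNAs, rose as well, from 39.9, 42.7 and 39.2 CPM to 73.6, 81.1 and 75.3 CPM (0.62 ± 0.17, adjusted p = 0.0482). The median of the 9 genes was 0.15, 2 were called higher and none lower, where 4.25% and 2.78% of all genes were. With 11 libraries 3 were called higher and 2 lower, where 15.2% and 12.5% of all genes were. R1 against HEK293T in +Met gave no call in this list with 12 libraries by edgeR or DESeq2, and 0 genes at an unadjusted p under 0.05.

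The directions of the list medians between the lines in +Met depended on the scaling for 3 lists. With TMM the medians were −0.38 for the methylosome, −0.66 for the SMN complex, −0.81 for the LSm genes and −0.51 for the U1 and U2 proteins. The U4/U6 and U5 proteins had −0.24, the minor spliceosome −0.28 and the export, capping and import list −0.13. With column sums the last 3 became 0.11, 0.076 and 0.22, and the first 4 became −0.031, −0.31, −0.46 and −0.15, while the Sm core had −0.54 on that scale.

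**Figure D5:**
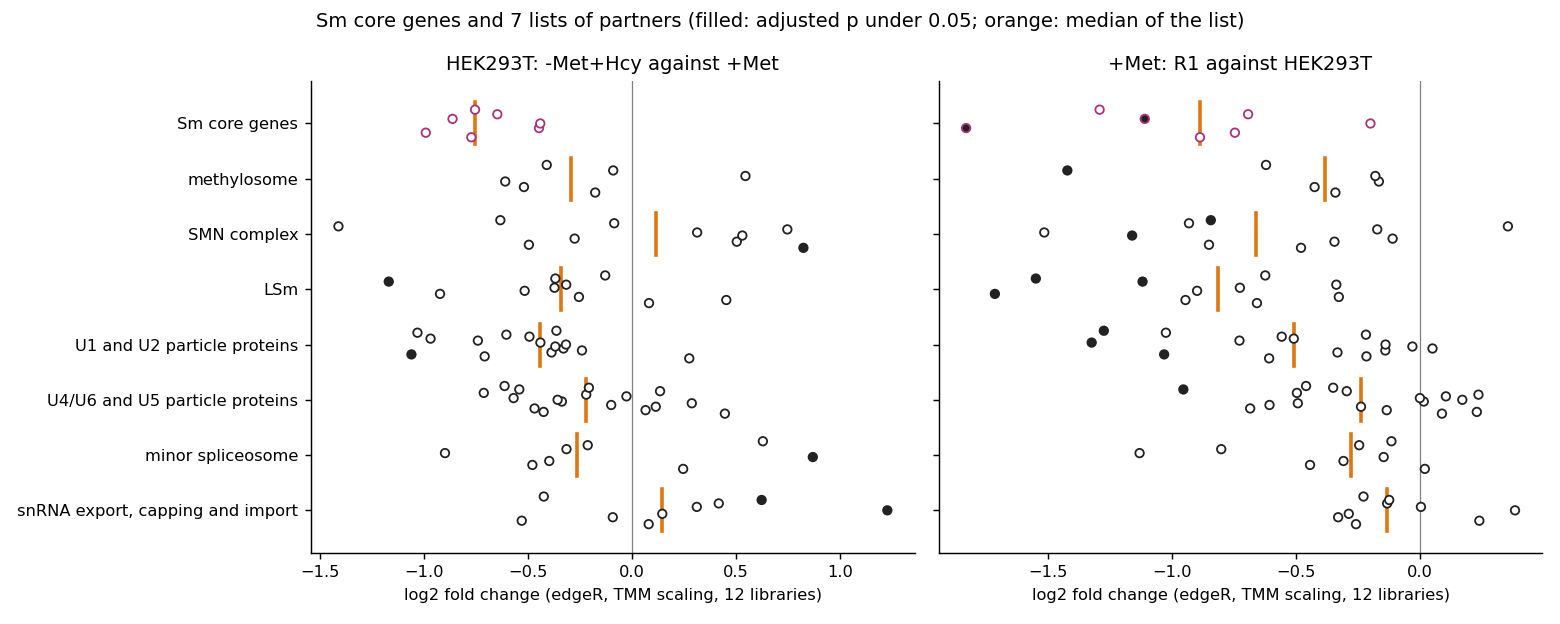
Log2 fold changes (x axis, TMM scaling, 12 libraries) of the Sm core genes and of the genes of 7 partner lists (rows) in HEK293T −Met+Hcy against +Met (left) and in R1 against HEK293T in +Met (right); filled points have an adjusted p under 0.05 and orange lines are list medians. On the left the Sm core median is −0.75 and the medians of the SMN complex and the export, capping and import list are above 0, and on the right all list medians are below 0, of which 3 lie above 0 with column sums.

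Genes whose levels ran most like the mean of the 7 Sm core genes were sought among genes whose mean log2 CPM exceeded 2. Over 12 libraries, which share the deviation of 1 library and differ in depth, the closest were PFDN4, NSMCE4A, DPM1, C1D and DNAJC19 (Pearson r from 0.986 to 0.992). Over 11 they were SLIRP, RPL15, MMADHC, RPL35A and RPL24 (r from 0.993 to 0.995). No gene was in both sets. For CLNS1A they were MED6, POLE2, PSTPIP2, IPO7 and TWF1 over 12 libraries (r from 0.976 to 0.985) and IPO7, MED6, MIX23, CCT4 and EIF3M over 11 (r from 0.980 to 0.991). SNRPN was left out, as its counts are close to 0. Of the members, SNRPB had an r with the mean of the core of 0.436 over 12 libraries and 0.979 over 11, and SNRPD3 had the lowest over 11 (0.714). Each core gene is itself part of this mean, which raises its r.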

How the data were processed

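RNA of HEK293T and R1 cells (12 libraries, 3 in each of 4 groups) was quantified by the authors with kallisto 0.48.0 against GRCh38. The deposited values are estimated transcript counts that the authors added per Ensembl gene and converted to whole numbers, unscaled for depth. R1 stands only in the titles of its samples, whose cell line entry reads HEK293T, and the titles were used.

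Genes with a summed count under 10 were excluded (6338 of 23500), leaving 17162. Counts were tested with edgeR 4.0.16 in R 4.3.3 (glmQLFit, glmQLFTest, TMM scaling, 1 mean per group, 8 residual degrees of freedom). P-values were adjusted over all these genes by Benjamini-Hochberg, and an adjusted p under 0.05 made a call with no fold threshold. The study itself used DESeq2. CPM are counts scaled to a column sum of 1000000, log2 fold changes carry SE derived from the test statistic, and SNRPN floors cover counting error only. Alternatives were DESeq2 1.42.0, RLE and column-sum scaling, other filters, the libraries compared alone, a replicate block, each library left out, and offsets for GC content and length (loess, span 0.3, over the 92.4% of genes with both). Offsets and DESeq2 without R1 −Met+Hcy replicate 3 were added after seeing the data. The test was also run on simulated counts, drawn with the spread estimated without R1 −Met+Hcy replicate 3 and without trends in GC content or length. That check therefore does not cover the effect of this library on the fit to 12 libraries. Coordinates and coding sequences come from GENCODE 44.

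The 9 members, the 7 lists and the tests were chosen with earlier results of these data known. Named are all members, up to 3 called genes per list, direction and comparison with the largest fold change (in HEK293T, and between the lines in +Met), and PRMT5, WDR77, SMN1, SMN2, SNRPA, SNRPB2 and SNRNP70.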

Additional observations from a re-analysis of the deposited data

How the results depend on the processing

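In HEK293T −Met+Hcy against +Met, where no member was called, it was 7 with only the libraries compared, 3 with GC and length offsets, 5 with these offsets and without R1 −Met+Hcy replicate 3, 1 with DESeq2, 7 with DESeq2 without that library, and 0 to 5 with each library left out in turn (5 without R1 −Met+Hcy replicate 3, 1 without R1 +Met replicate 2 and 1 without R1 −Met+Hcy replicate 2). In R1 against HEK293T in +Met the count of 2 became 7 with only the libraries compared, 5 with offsets and without that library, 7 with DESeq2 without it, and 1 to 7 with each library left out. In R1 against HEK293T in −Met+Hcy the count of 1 became 0 with only the libraries compared, 2 with the offsets, and 0 to 3 with each library left out (3 without R1 −Met+Hcy replicate 1). The interaction had 0 calls and 3 with offsets and without R1 −Met+Hcy replicate 3, and R1 −Met+Hcy against +Met had 0 throughout. The summed level of the Sm core genes in HEK293T +Met was 3496 CPM with TMM against 2952, by the construction of the scaling; the other causes were not tested. Over the alternatives, single members gave 867 values (SNRPD1 has none with DESeq2 in 12 libraries, and SNRPN was left out), of which 800 stayed on their side of the threshold, 59 passed it newly and 8 no longer passed. Of the 867, 45 had the other sign, none of them called in either fit (25 in R1 −Met+Hcy against +Met, 15 and 3 between the lines in −Met+Hcy and +Met, 2 in the interaction and 0 in HEK293T). For the counts and sums, 119 values stayed within 1.5 times or 1 SD, 15 counts were higher, 7 lower and 1 sum moved.

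The sample titles number the replicates without saying whether equal numbers are paired. Same-numbered libraries correlated from −0.504 to 0.484 in their deviations from the group means, and not every library correlated best with its own number. These deviations also hold each library's trends with GC content and length, so they cannot decide whether the numbers pair. With the replicate block the counts were 0, 0, 2, 1 and 0 in HEK293T, R1, the lines in +Met, the lines in −Met+Hcy and the interaction, as without it. Offsets together with the block were not run. Depth limits SNRPN alone, at 0 to 4 counts per library.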
